A study of Mus musculus with 4 samples.

Results

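The synapse organizer adhesion genes are 33 of the 19465 features measured by Visium-FFPE in brain sections, taken by symbol from the neurexins, neuroligins, SLITRKs, LRRTMs, cerebellins, latrophilins and their partners. All 33 were detected and could be tested over the whole section. Synapse organizers are proteins of the cell surface or the synaptic cleft that hold the presynaptic and postsynaptic membranes together and recruit the release machinery and the receptors. Presynaptic neurexins and receptor tyrosine phosphatases face postsynaptic neuroligins, LRRTMs, SLITRKs and Il1rapl1, whereas cerebellins and several astrocyte proteins are secreted into the cleft between them. Neurons of different areas are known to use different sets of these proteins.

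The sections came from male wild-type C57BL/6J offspring at postnatal day 21. Their mothers received a diet with 2 mg/kg folic acid (MF, 2 sections) or 20 mg/kg folic acid (HF, 2 sections) from 2 weeks before mating through pregnancy and lactation. In Visium-FFPE, probe pairs bind to transcripts of fixed tissue and are counted as unique molecular identifiers (UMIs) in barcoded spots, each of which holds the RNA of several cells. Levels are given as CPM, counts of a gene scaled to the same total of UMIs in each area and section, so the level of 1 gene can be compared between areas but not with that of another gene. A lower level in an area can mean fewer cells of a type or less RNA per cell, which these data cannot tell apart.

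After removal of 18 shallow spots, 13452 spots were kept, with 3197 to 3598 per section and totals of 34983708 to 90098381 UMIs. MF replicate 1 was the deepest section, with a median of 23544 UMIs per spot against 9286 to 12075 in the other sections. HF replicate 2 stood apart in its hypothalamus. There, Oxt and Avp, which encode oxytocin and vasopressin, reached 2611 and 2068 CPM against at most 16.9 and 7.97 CPM in the other sections, whereas Pmch, the gene of melanin-concentrating hormone, was at 2.22 CPM against 1432 to 3120 CPM. Whether this section was cut at another plane was not tested. Areas were found by clustering the spots without the 33 genes and were named from marker genes as CTX, HP, TH, HY, STR and white matter (WM), with L2–3 and L4–6 inside CTX and CA1, CA2–3, DG and matrix inside HP. Of the 17 areas described, 3 took no name from the marker lists. They are called by genes that lead them (Rorb-Kcnh5, Ccn3-Lmo3 and Tmem212-Ccdc153 spots), chosen after the clusters were seen. The Rorb-Kcnh5 spots lie inside CTX but in neither L2–3 nor L4–6, although Rorb was on the L4–6 marker list. L4–6 holds clusters with Rprm, Fezf2 or Ccn2 among their leading genes, and a further CTX cluster led by Myl4 and Fezf2 is outside it. The choroid plexus, with 8 to 12 spots per section, is not ranked, so that orders of levels are over 16 areas.

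Of the 33 genes, 14 were highest in the same area in 4 of 4 sections, and for 8 of these the sections of that area lay above all sections of the area with the second highest mean. These were Slitrk6 and Lrrtm2 in TH, Cbln2 and Cbln4 in the medial habenula, Ntrk3 and Gpc4 in DG, Clstn2 in CA2–3 and Ptprd in the reticular thalamus. The shares of all features with such patterns were not computed, so the counts of 14 and 8 only describe these genes. Promoters are shown for 4 of the 8, chosen after the levels were seen because the RefSeq promoter table lists them, as the 250 bases before the gene start (GRCm38.p6). Capitals mark matches on either strand to the TATA box (TATAAA), the CCAAT box (CCAAT), the GC box (GGGCGG), the E-box (CACGTG), the CRE (TGACGTCA) or the core of Tcf and Lef sites (CTTTGAT). All 4 genes lie on the minus strand, and the sequences run 5′ to 3′ on it.
Slitrk6, chr14:110755150-110755399: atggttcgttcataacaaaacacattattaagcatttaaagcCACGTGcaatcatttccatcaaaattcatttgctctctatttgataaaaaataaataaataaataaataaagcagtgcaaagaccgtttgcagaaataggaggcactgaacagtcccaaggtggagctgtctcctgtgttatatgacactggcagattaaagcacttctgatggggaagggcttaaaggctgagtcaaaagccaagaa
Cbln4, chr2:172043467-172043716: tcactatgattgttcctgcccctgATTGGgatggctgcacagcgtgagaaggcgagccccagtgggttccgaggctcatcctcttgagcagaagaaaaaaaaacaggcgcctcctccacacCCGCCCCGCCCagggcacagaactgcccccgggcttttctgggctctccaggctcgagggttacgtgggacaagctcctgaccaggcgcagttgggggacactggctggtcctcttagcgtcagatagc
Clstn2, chr9:98033168-98033417: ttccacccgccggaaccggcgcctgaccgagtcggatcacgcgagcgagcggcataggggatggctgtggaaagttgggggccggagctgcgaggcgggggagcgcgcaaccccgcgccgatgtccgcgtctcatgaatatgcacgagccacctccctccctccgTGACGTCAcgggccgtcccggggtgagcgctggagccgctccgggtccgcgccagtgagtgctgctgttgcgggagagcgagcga
Gpc4, chrX:52164924-52165173: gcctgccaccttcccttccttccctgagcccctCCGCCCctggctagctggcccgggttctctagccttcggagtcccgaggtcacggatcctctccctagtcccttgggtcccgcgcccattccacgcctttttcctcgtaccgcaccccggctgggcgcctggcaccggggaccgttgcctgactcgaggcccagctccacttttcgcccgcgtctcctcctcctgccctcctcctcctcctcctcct
The Slitrk6 window had a GC content of 37.2%, and those of Cbln4, Clstn2 and Gpc4 had 60.8%, 70.8% and 68.4%, against a median of 52.4% over the 32851 promoters listed. An E-box stood in the Slitrk6 window and in 6.02% of all promoters. Clstn2 held a CRE, found in 1.55% of all. In the Cbln4 window a CCAAT box and 2 GC boxes that overlap by 1 base were found, and in that of Gpc4 a single GC box; these letters occur in 33.9% and 32.7% of all promoters. The TATA box and the Tcf and Lef core, in 12.4% and 3.21% of all promoters, were in none of the 4 windows. GENCODE places the gene start 14 bases further upstream for Clstn2 and 329 bases for Gpc4. The last 14 bases of the Clstn2 window and the whole Gpc4 window thus lie inside the gene as GENCODE gives it. A match is a description of the letters and not of a bound site.

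Which areas of the section carry which combination of the genes was examined first. In tests of each of 6 main areas against the mean of the others (edgeR quasi-likelihood test, section as a block, adjusted p under 0.05 and at least 1.2-fold), 30 of the 33 genes passed in the main area where the fit was highest for them, against 69% of all features in theirs, and since that area is chosen by the same values nothing is read from this count. For Nlgn2, Nlgn3, Lrrc4b, Clstn3 and Sparcl1 the mean CPM was higher in HY than in the area that the fit, with TMM scaling, placed first. CTX had 16 genes higher, where 16.7% of all features were, and 1 lower against 20% of all. In WM, 21 genes were lower against 18.9% of all, and only Ptprd was higher against 21.7%. HP held 9 higher and 10 lower genes (background 14.6% and 17%), TH 10 and 10 (16.2% and 20%), HY 5 and 9 (19.6% and 20.8%) and STR 8 and 7 (11.3% and 10.6%). The median log2 difference of the 33 genes was 0.26 in CTX and -0.39 in WM, and over all features it was -0.02 and -0.01. Of 76 other synapse organizer genes tested, 34 were higher and 17 lower in CTX, and 15 were higher and 36 lower in WM. The gene lower in CTX was Slitrk6.

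**Figure D1:**
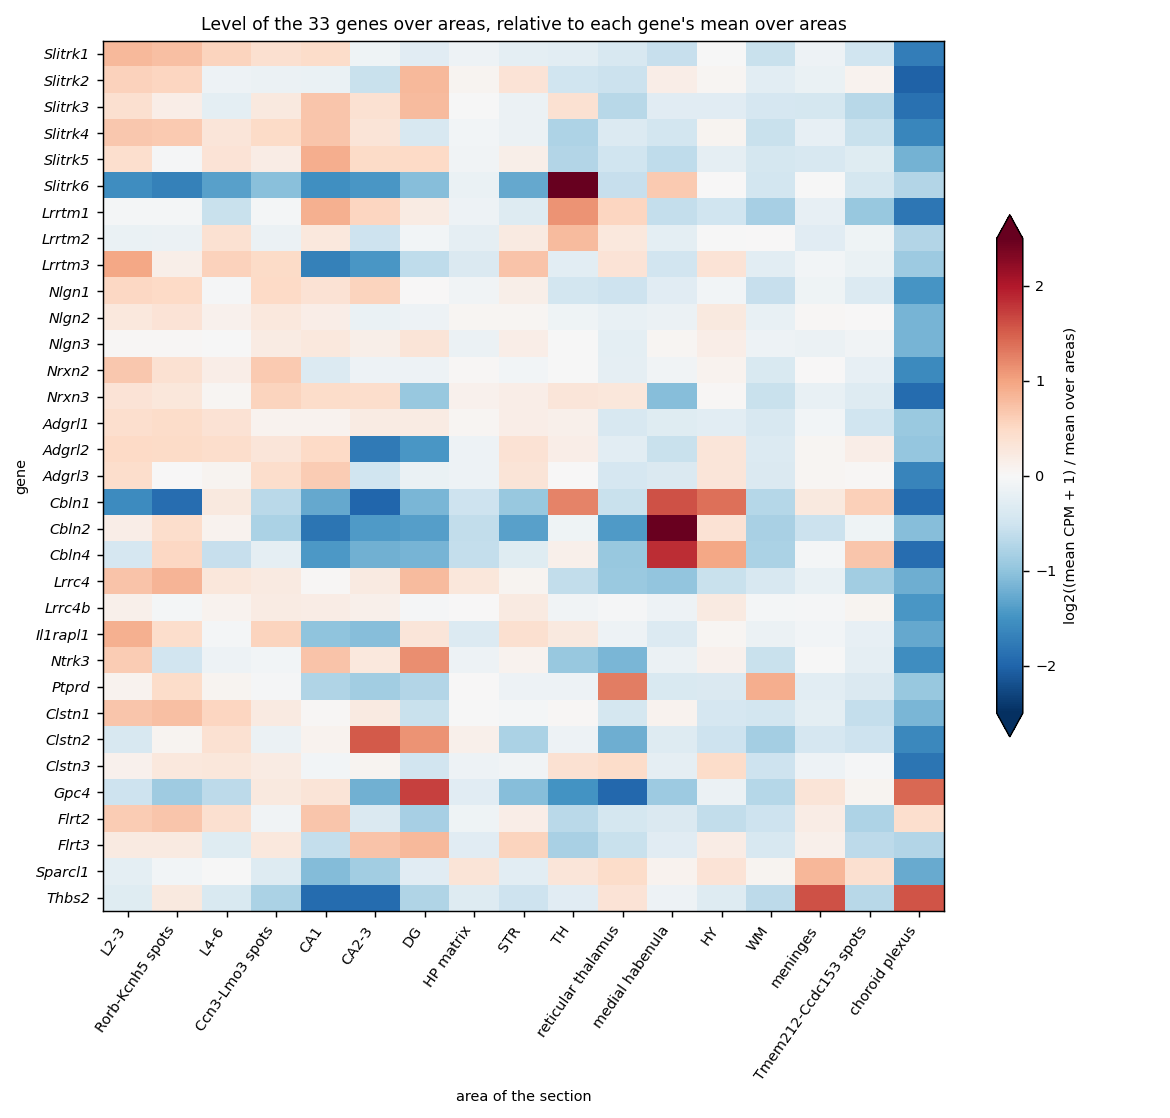
Mean level of each of the 33 genes (rows) over 17 areas (columns), as the log2 of the mean CPM of the 4 sections plus 1 over that gene's mean over areas; red is above and blue below that mean, and the scale ends at 2.5 on either side. Slitrk6 stands out in TH, the 3 cerebellins in the medial habenula, Clstn2 in CA2–3, Gpc4 in DG and Ptprd in the reticular thalamus; the choroid plexus rests on 8 to 12 spots per section.

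The SLITRKs are postsynaptic leucine-rich repeat proteins, several of which bind receptor tyrosine phosphatases. Slitrk6 (ENSMUSG00000045871, chromosome 14 from 110748580 to 110755149, GRCm38) was measured in TH at 78.9 and 86.4 CPM in the MF sections and at 118 and 115 CPM in the HF sections. In the medial habenula, second in the order, its mean was 22.7 CPM ± 7.29 (SD, n = 4), and it was lowest in the Rorb-Kcnh5 spots at 3.68 CPM ± 0.641 (SD, n = 4). Every section thus had its highest level in TH, and the log2 difference to the other main areas was 3.55 ± 0.07 (SE, adjusted p = 4.72e-29, edgeR). It also had the highest mean Moran's I of the 33 genes, a score of how alike neighbouring spots are, with 0.376 to 0.458 in the 4 sections against section medians of 0.0104 to 0.0166 over all features.

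Of the other SLITRKs, none was highest in TH. Slitrk1 was highest in L2–3 (260 CPM ± 8.93, SD, n = 4), with the Rorb-Kcnh5 spots at 249 CPM, and these overlapped. Slitrk4 followed it closely over areas (Pearson's r = 0.90 over 16 areas of at least 20 spots, whose levels share the 4 libraries), with near-equal levels in CA1 (69.2 CPM), L2–3 (67.8 CPM) and the Rorb-Kcnh5 spots (67.0 CPM). Slitrk5 was highest in CA1 at 57.7 CPM and lowest in TH at 17.8 CPM. Slitrk2 and Slitrk3, of which Slitrk3 acts at inhibitory synapses, were highest in DG with 54.6 and 114 CPM, above L2–3 and CA1 by 1.19-fold and 1.07-fold with overlapping sections. The other SLITRKs were thus highest in L2–3, CA1 or DG, each with sections that overlapped those of the next area.

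The LRRTMs are postsynaptic ligands of neurexins. Lrrtm1 and Lrrtm2 were highest in TH, at 229 CPM ± 35.9 and 150 CPM ± 18.4 (SD, n = 4), with log2 differences to the other main areas of 1.5 ± 0.04 and 0.80 ± 0.05 (SE, adjusted p = 2.62e-26 and 4.13e-16, edgeR). For Lrrtm1 the sections of TH overlapped those of CA1, its second area (194 CPM ± 34.8, SD, n = 4). Lrrtm3 instead was highest in L2–3 at 152 CPM and in STR at 126 CPM, and it was lowest in CA1 at 23.2 CPM ± 11.4 (SD, n = 4). Within HP, Lrrtm3 was lower in CA1 and in CA2–3 than in the other hippocampal areas, each by -0.59 on the log2 scale, whereas Lrrtm1 was higher in CA1 by 0.71. In both of these pyramidal layers, Lrrtm1 was thus called higher and Lrrtm3 lower.

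Of the neuroligins, the classical partners of neurexins, Nlgn2 and Nlgn3 varied little. Nlgn2, found at inhibitory synapses, had 224 CPM in its highest area (Rorb-Kcnh5 spots) and 155 CPM in its lowest (WM), and Nlgn3 had 106 CPM in DG and 70.7 CPM in the reticular thalamus. Neither reached the 1.2-fold limit in the main area where its fit was highest, and Nlgn3 had the lowest mean Moran's I of the 33 genes (0.00798). Nlgn1, an organizer of excitatory synapses, ranged from 121 CPM in CA2–3 to 54.4 CPM in WM and was called higher in CTX by 0.41 and in HP by 0.31 on the log2 scale. Lrrc4b, a postsynaptic partner of LAR-type phosphatases, was the flattest gene, with 1.27-fold between HY (399 CPM) and the medial habenula (313 CPM), and it too did not pass.

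Neurexins and Ptprd are presynaptic. Nrxn2 reached 1023 CPM in L2–3 and 1021 CPM in the Ccn3-Lmo3 spots, which did not differ beyond their spread, and 497 CPM in WM. Nrxn3 was highest in the Ccn3-Lmo3 spots (483 CPM) and low in the medial habenula (156 CPM) and in DG, where its log2 difference to the other hippocampal areas was -1.43. Ptprd (ENSMUSG00000028399, chromosome 4 from 75941238 to 78211961), a receptor tyrosine phosphatase that SLITRKs and Il1rapl1 bind, was measured in the reticular thalamus at 448, 493, 561 and 439 CPM in MF replicates 1 and 2 and HF replicates 1 and 2. In WM it was at 378, 413, 377 and 331 CPM. All 4 values of the reticular thalamus lay above those of WM, and the pattern of Ptprd over areas was compared with those of 8 genes that bind it or related phosphatases. Over 16 areas, r ranged from -0.52 for Slitrk3 (Spearman's rho -0.30) to 0.35 for Il1rapl1 (0.44), with values near 0 for Slitrk1 (-0.02) and Slitrk6 (0.01).

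The cerebellins are secreted proteins that bind neurexins and bridge the synaptic cleft. Cbln2 was measured in the medial habenula at 212 and 261 CPM in the MF sections and at 293 and 136 CPM in the HF sections, and its second area, the Rorb-Kcnh5 spots, had a mean of 54.1 CPM. Cbln4 (ENSMUSG00000067578, chromosome 2 from 172036233 to 172043466) had 88.3, 79.9, 88.5 and 143 CPM there, above 54.3 CPM in HY. In HF replicate 2 the medial habenula had 35 spots against 61 to 74 in the others, and it was this section that had the lowest Cbln2 and the highest Cbln4 and Cbln1. Cbln1 (ENSMUSG00000031654) was spread over more areas, with 130 CPM ± 56.7 in the medial habenula, 112 CPM ± 37.1 in HY and 102 CPM ± 30.4 in TH (SD, n = 4), and these overlapped. In L2–3 it was lower than in L4–6, with -1.90 on the log2 scale, the largest difference between these layers among the 33 genes. Over 16 areas Cbln2 and Cbln4 ran together (r = 0.89). Cbln1, Cbln2 and Cbln4 had a negative r with Nrxn3 (-0.40, -0.40 and -0.36) but not all with Nrxn2 (-0.15, 0.30 and 0.19).

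**Figure D2:**
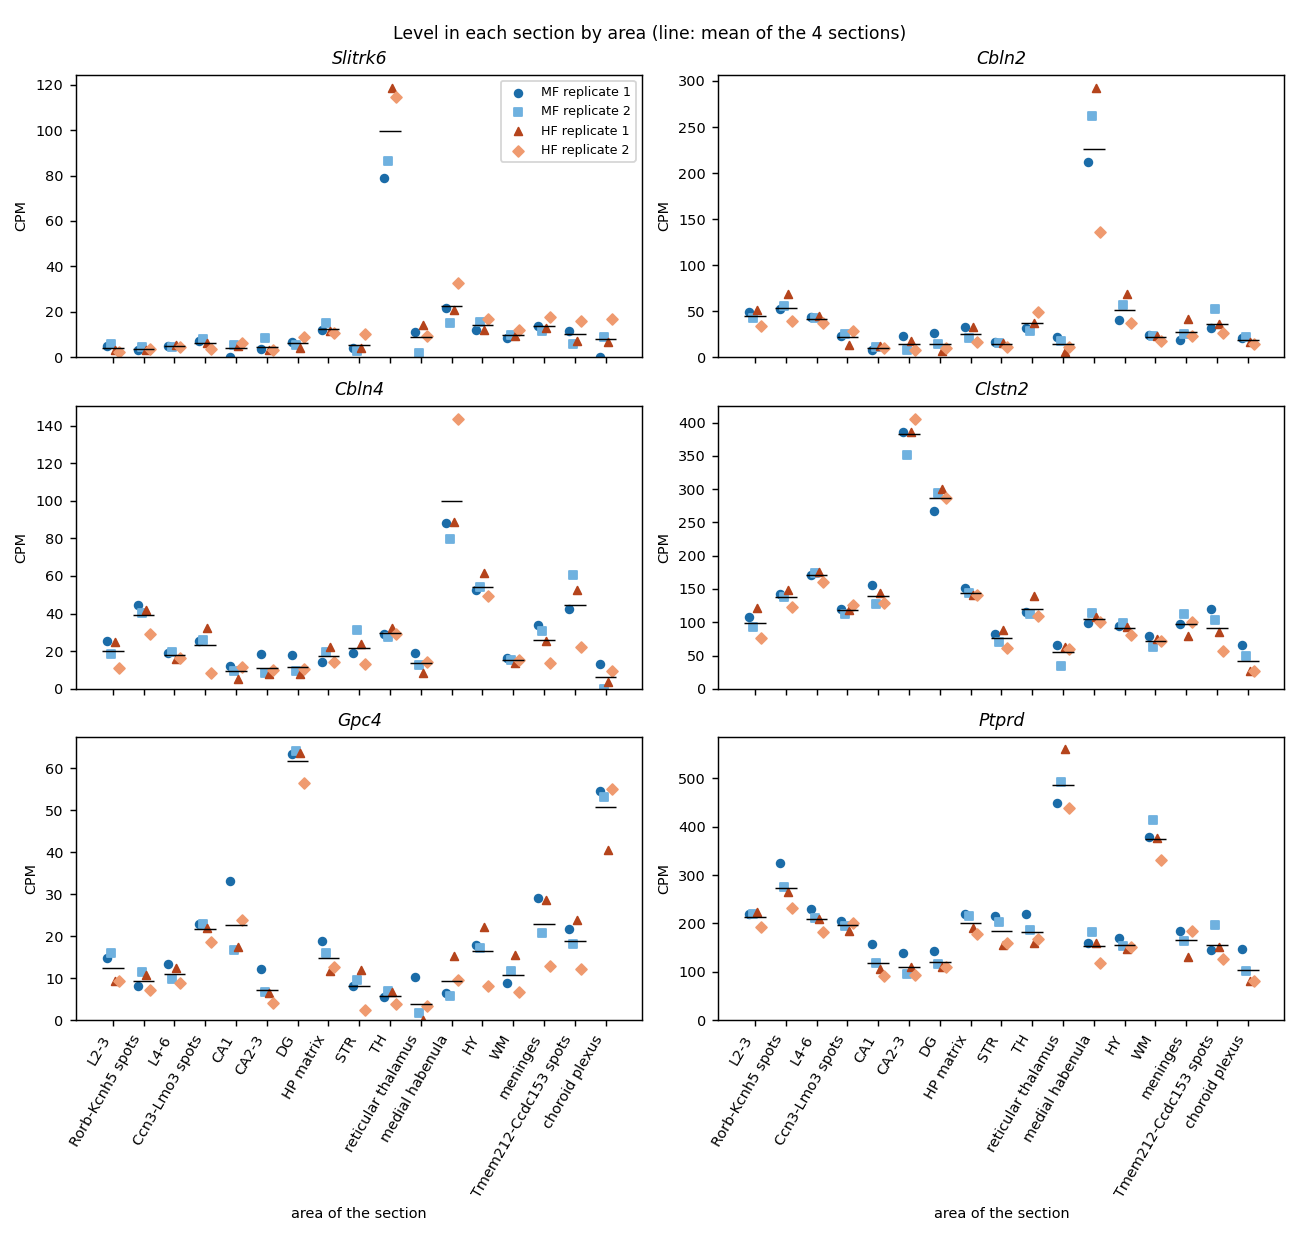
CPM of Slitrk6, Cbln2, Cbln4, Clstn2, Gpc4 and Ptprd (vertical axes, from 0) in 17 areas, with a symbol for each section and a line for the mean of 4. Slitrk6 lies between 78.9 and 118 CPM in TH and below 33 CPM in every other area; HF replicate 2 is lowest for Cbln2 and highest for Cbln4 in the medial habenula.

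The calsyntenins are postsynaptic cadherin-related proteins, and each had another area as its highest. Clstn2 (ENSMUSG00000032452, chromosome 9 from 97444395 to 98033181) was measured in CA2–3 at 385 and 351 CPM in the MF sections and at 386 and 406 CPM in the HF sections. DG followed with 267 to 301 CPM, without overlap, and CA1 had 127 to 157 CPM. Clstn1, a cargo adaptor of kinesin transport, was highest in the Rorb-Kcnh5 spots and L2–3 (2116 and 2034 CPM), and had the second highest mean Moran's I (0.418). Clstn3, a ligand of neurexins, had 346 CPM in HY and 345 CPM in the reticular thalamus, which did not differ beyond their spread, and 176 CPM in WM.

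DG had the most genes at their highest, 6 of the 33, ahead of L2–3 and the Rorb-Kcnh5 spots with 5 each. Of the 6, only Ntrk3 and Gpc4 had sections of DG above all those of the next area. The share of all features that were highest in DG was not computed, so nothing is read from this count. Gpc4 (ENSMUSG00000031119, chromosome X from 52053021 to 52165252), a glypican that binds Lrrtm4, was measured there at 63.3, 64.2, 63.6 and 56.4 CPM. These values were above the meninges, second of the 16 areas, at 22.9 CPM, and close to the choroid plexus, where few spots gave a mean of 50.9 CPM and every section was below the lowest of DG. Ntrk3 (ENSMUSG00000059146), which encodes TrkC, the receptor of neurotrophin-3 and a partner of Ptprs, had 458 to 498 CPM in DG and 311 to 386 CPM in CA1, with no overlap, and 96.9 CPM in the reticular thalamus. Flrt3, a ligand of latrophilins and Unc5 receptors, was at 22.8 CPM in DG and 21.3 CPM in CA2–3, and was called lower in CA1 by -1.32 on the log2 scale. Its relative Flrt2 was the reverse: it was higher in CA1 by 1.23 and lower in DG by -1.02.

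The latrophilins, G protein-coupled adhesion receptors for teneurins and FLRTs, also divided the hippocampus. Adgrl2 was at 61.0 CPM ± 8.98 in CA1 and at 11.9 CPM ± 2.90 in CA2–3 (SD, n = 4), with log2 differences of 1.73 in CA1, -1.29 in CA2–3 and -1.19 in DG to the other hippocampal areas. Adgrl3 was higher in CA1 as well, by 0.94. Adgrl1 differed by at most 0.20 between hippocampal areas and was not called in any. Over the whole section Adgrl1 ran with Lrrc4, a postsynaptic partner of netrin-G2 (r = 0.87 over 16 areas), and both were highest in the Rorb-Kcnh5 spots. Il1rapl1, an interleukin receptor family protein that binds Ptprd, was highest in L2–3 at 46.2 CPM and called higher there than in L4–6 by 1.02 on the log2 scale.

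Within CTX, 15 genes were called higher in L2–3 than in L4–6 against a background of 12.4%, and 3 lower (Cbln1, Clstn2 and Lrrtm2) against 11.9%. The Rorb-Kcnh5 spots were on neither side of this comparison. In CA1, 13 of 32 genes were higher and 6 lower (14.5% and 16.4% of all features), in CA2–3 8 and 9 (16.9% and 15%), in DG 9 and 13 (21.1% and 20.7%) and in the matrix 7 and 9 (21.6% and 16.9%). The secreted proteins Sparcl1 and Thbs2, made by astrocytes and, for thrombospondins, also by cells of vessels and meninges, were both highest in the meninges, at 1668 and 35.7 CPM. Sparcl1 was lowest in CA1 at 441 CPM ± 99.3 (SD, n = 4).

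Combinations were read from the genes at 1.5 times their mean over 16 areas or more, or at that mean divided by 1.5 or less, in each of the 4 sections, a rule set after the levels were seen. By this rule 19 genes were high in at least 1 area, 12 of them in 1 area, and 9 were neither high nor low anywhere. The rule was not applied to all features, so these counts have no background. L2–3 combined Slitrk1, Lrrtm3, Lrrc4, Il1rapl1 and Clstn1, with Slitrk6 and Cbln1 low. TH combined Slitrk6, Lrrtm1, Lrrtm2 and Cbln1, with Slitrk4, Slitrk5, Ntrk3, Gpc4 and Flrt3 low. DG combined Slitrk3, Ntrk3, Clstn2, Gpc4 and Flrt3, with Slitrk6, Nrxn3, Adgrl2, Ptprd and the 3 cerebellins low. In the medial habenula the 3 cerebellins were high and Nrxn3 and Lrrc4 low, and the matrix of HP had no gene of either kind. Some of these genes were high elsewhere too: Lrrc4 and Clstn1 in the Rorb-Kcnh5 spots, Lrrtm1 in CA1, Clstn2 in CA2–3, and Cbln1 and Cbln4 in HY. Over all 528 pairs the median r across areas was 0.17, and over the 46 pairs of known partners it was 0.19, with 30 pairs above 0.

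**Figure D3:**
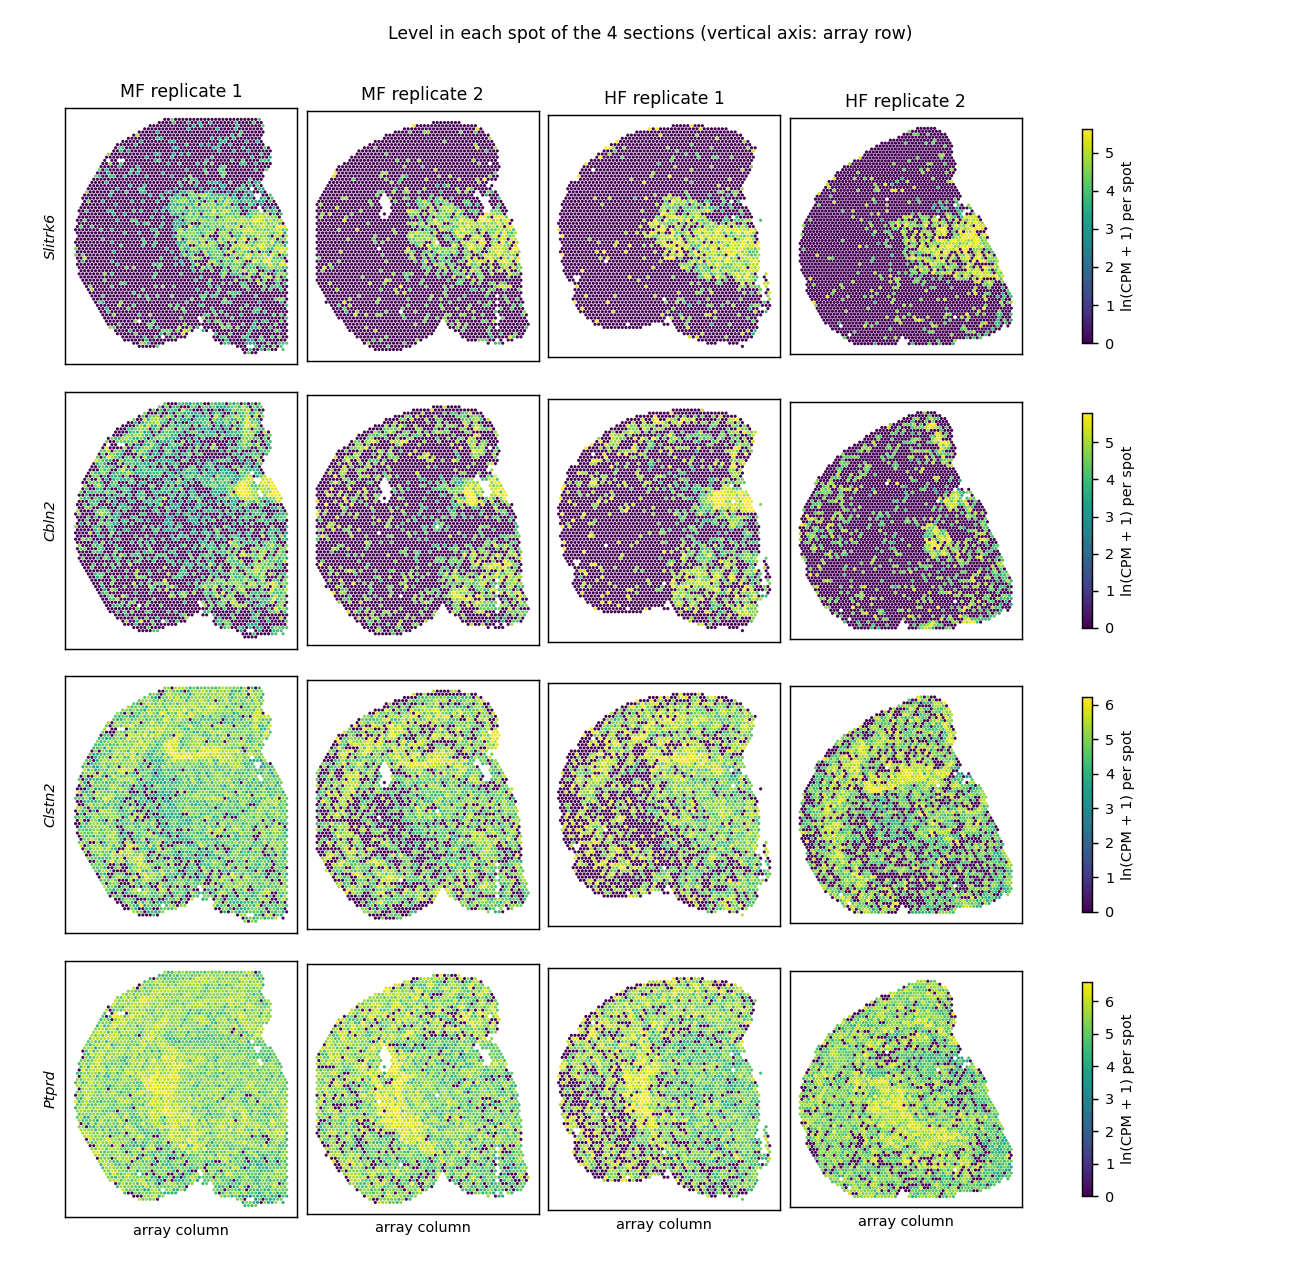
Each spot of the 4 sections (columns) coloured by ln(CPM + 1) of Slitrk6, Cbln2, Clstn2 and Ptprd (rows); horizontal and vertical position are array column and row, and each colour scale ends at the 99th percentile of that gene. Slitrk6 fills the thalamus, Cbln2 marks a small patch near the midline that is smaller in HF replicate 2, Clstn2 is high along the hippocampus and Ptprd in a band lateral to the thalamus.

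Whether maternal HF changed the genes was tested on the UMIs summed per section. No gene of the 33 was called between HF and MF in the whole section or in any of the 12 areas run (edgeR quasi-likelihood test, adjusted p under 0.05 and 1.2-fold), where 0% of all features in the whole section were called. DESeq2 called none of the 33 genes either, and 0.147% of all features in the whole section and 0.0373% in TH. By area, the share of all features called was 0.158% in CTX, 0.224% in HP, 0% in TH and HY, 0.0633% in STR, 0.00798% in WM, 0.374% in L2–3, 0.0978% in L4–6, 0.0467% in CA1, 0.312% in CA2–3, 0.225% in DG and 0.0284% in the matrix. At an unadjusted p under 0.05, 2 of 33 genes passed in the whole section against 6.81% of all features, 4 in CTX (7.91%), 3 in HP (8.4%), 6 in TH (7.14%), 2 in HY (6.32%), 2 of 31 in STR (6.56%) and 1 in WM (4.91%). In the smaller areas these were 3 of 32 in L2–3 (7.88%), 3 in L4–6 (5.75%), 5 of 27 in CA1 (5.45%), 0 of 27 in CA2–3 (6.59%), 2 of 31 in DG (7.08%) and 0 in the matrix (4.73%). Sections of the diets did not overlap for 9 of 33 genes in the whole section (39.6% of all features), 10 in CTX (37.3%), 13 in HP (37.8%), 14 in TH (38.5%), 11 in HY (38.1%), 8 of 31 in STR (35.4%) and 9 in WM (33.9%). For L2–3, L4–6, CA1, CA2–3, DG and the matrix these were 12 of 32 (36.1%), 9 of 33 (34.3%), 14 of 27 (33.6%), 7 of 27 (33.7%), 15 of 31 (35.6%) and 8 of 33 (33.2%). The median log2 difference (HF minus MF) was 0.00 in the whole section, as over all features, and -0.02 to 0.04 in the areas. These medians changed sign with the processing. The lowest was -0.15, in CA2–3 without HF replicate 1, and the highest 0.19, in CA1 with spots thinned to 5000 UMIs. Leaving out HF replicate 1 gave -0.06 in TH, and leaving out HF replicate 2 gave 0.11. Taken alone, a gene cannot reach 0.05 in an exact permutation of 2 against 2 sections.

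Leaving out an HF section changed this count. Without HF replicate 1, 4 genes were called in the whole section and 5 in TH, and without HF replicate 2, 6 and 6. In those fits 7.68% and 5.55% of all features were called in the whole section and 7.54% and 9.9% in TH, in place of 0%, and the lone HF section was assumed to vary like the MF pair. Without either MF replicate no gene was called.

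**Figure D4:**
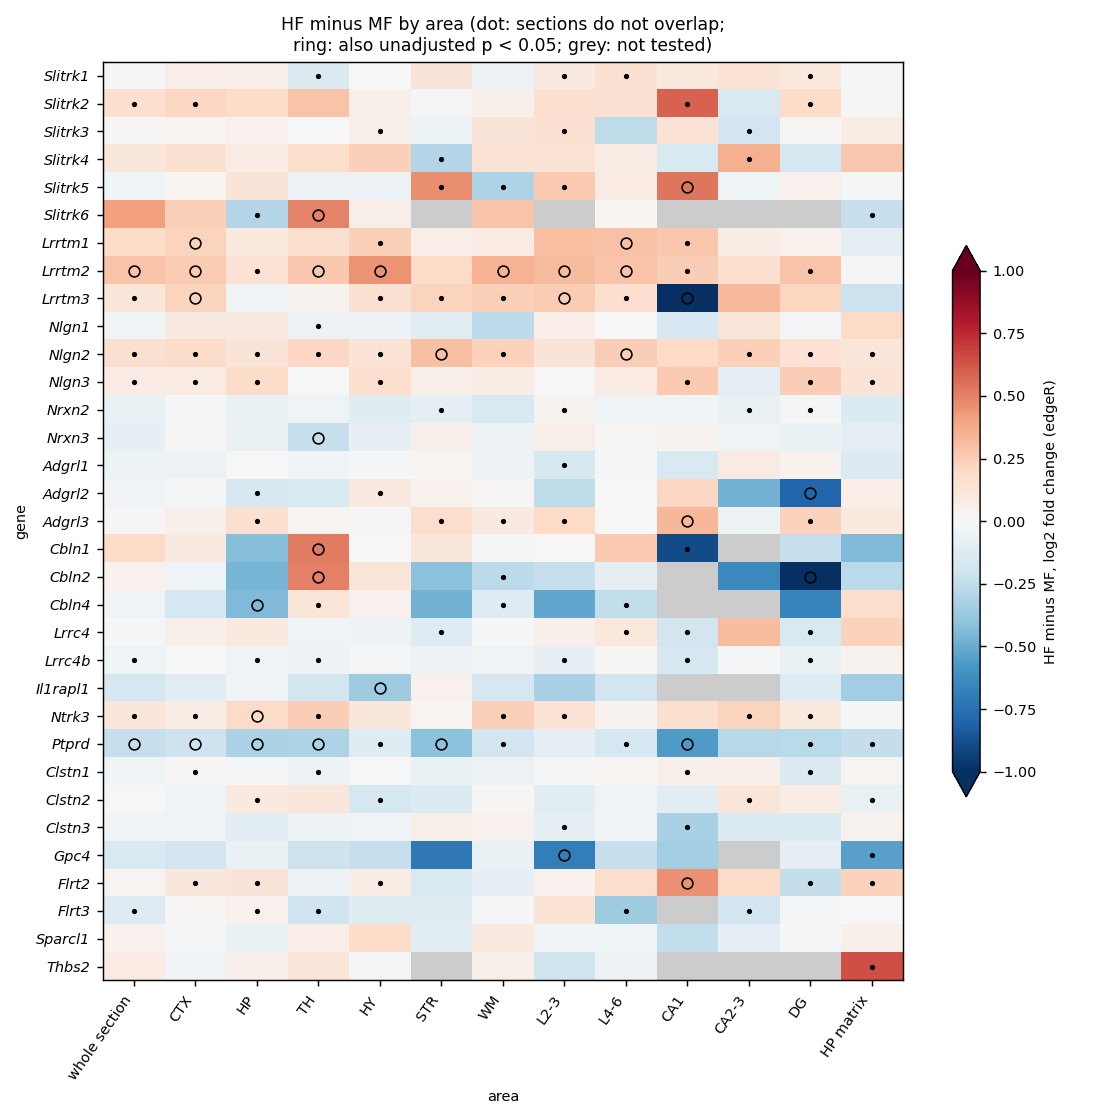
Log2 fold change (HF minus MF, edgeR) of the 33 genes (rows) in the whole section and 12 areas (columns); dots mark sections of the diets that do not overlap, rings those that also have an unadjusted p under 0.05, and grey cells were not tested. Lrrtm2 is above 0 and Ptprd below 0 in nearly every column, and no cell passes the adjusted test.

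Lrrtm2 and Ptprd met the naming rule in the most areas. Lrrtm2, the postsynaptic neurexin ligand, was measured in the whole section at 90.1 and 90.0 CPM in MF and at 116 and 104 CPM in HF. Both HF sections lay above both MF sections, by 0.28 ± 0.08 on the log2 scale (SE, adjusted p = 0.696, edgeR). In 9 of 12 areas the diets did not overlap with HF higher, and the log2 difference was above 0 in 11, with -0.02 to 0.45 over all and the highest in HY (68.2 and 75.2 CPM in MF, 94.5 and 102 CPM in HF). In HY the summed level of 4 inhibitory neuron markers was 612 and 636 CPM in MF and 707 and 776 CPM in HF, with 2 of 4 higher in both HF sections. That of 5 oligodendrocyte precursor markers was 326 and 343 CPM against 447 and 374 CPM, with 2 of 5. Their part in the Lrrtm2 difference was not tested. In each of the 3 clusters of TH and the 3 of HY both HF sections were above both MF sections, though 1 of the HY clusters had 5 spots in HF replicate 2. The smallest adjusted p of Lrrtm2 in any area was 0.468, in CTX. There, the summed level of 11 oligodendrocyte markers was 13033 and 13274 CPM in MF and 11242 and 10073 CPM in HF, with 11 of 11 lower in both HF sections. Its part in the Lrrtm2 difference was not tested either. The areas come from the same 4 sections and partly contain each other, so they do not repeat the comparison independently.

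Ptprd was measured in the whole section at 228 and 208 CPM in MF and at 180 and 193 CPM in HF. Both HF sections lay below, by -0.23 ± 0.09 on the log2 scale (SE, adjusted p = 0.704, edgeR), and the difference was below 0 in 12 of 12 areas, from -0.56 in CA1 to -0.09, with 10 areas in which the diets did not overlap. In HP it was -0.31 (171 and 147 CPM in MF, 135 and 122 CPM in HF; adjusted p = 0.406) and in STR -0.41 (adjusted p = 0.457). Ptprd is high in WM, and the summed level of 11 oligodendrocyte markers moved with it: it was 26284 and 27450 CPM in the MF sections and 21782 and 23377 CPM in the HF sections over the whole section, with 10 of 11 markers lower in both HF sections, and in HP it was 16660 and 15437 CPM against 11177 and 10875 CPM, with 11 of 11. In WM the sum overlapped between diets (82456 and 98306 CPM in MF, 93286 and 77435 CPM in HF), and Ptprd was at 378 and 413 CPM against 377 and 331 CPM. In L2–3 it was 8098 and 8355 CPM in MF and 5401 and 4530 CPM in HF, where Ptprd overlapped, with 219.6 and 220.2 CPM against 223 and 192 CPM. Its part in the Ptprd difference was not tested.

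**Figure D5:**
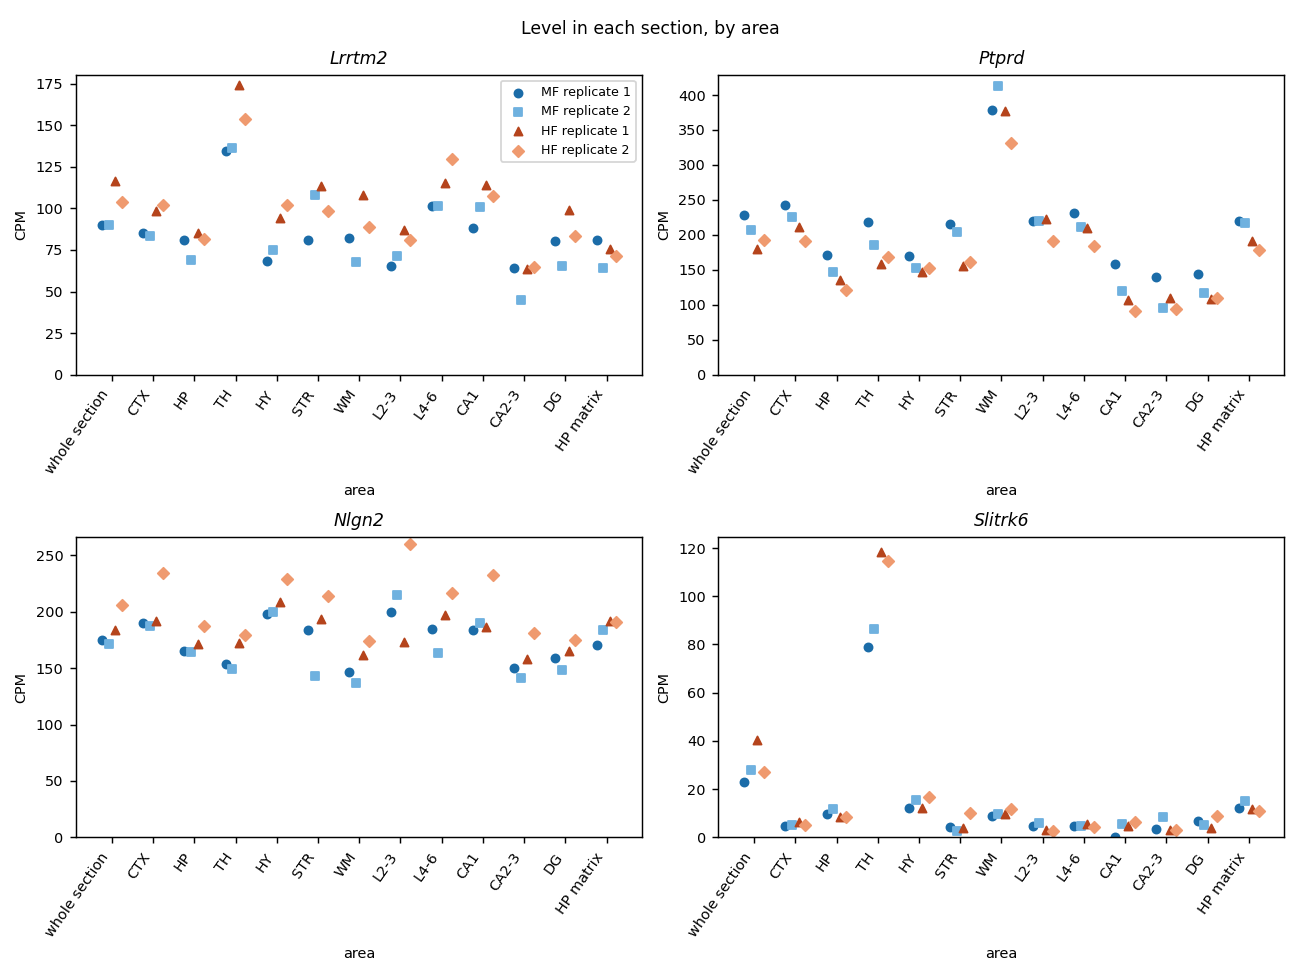
CPM of Lrrtm2, Ptprd, Nlgn2 and Slitrk6 (vertical axes, from 0) in the whole section and 12 areas, with a symbol for each of the 4 sections. The HF symbols of Lrrtm2 lie above those of MF in 9 of 12 areas and those of Ptprd below in 10 of 12.

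Nlgn2, of inhibitory synapses, was above 0 in 12 of 12 areas by 0.12 to 0.30 on the log2 scale, with 10 that did not overlap. It met the naming rule in STR (0.30, adjusted p = 0.713) and L4–6 (0.25, adjusted p = 0.797). In the whole section it had 175 and 171 CPM in MF and 183 and 206 CPM in HF. The summed level of 11 oligodendrocyte markers in STR was 34090 and 30788 CPM in MF and 28793 and 26936 CPM in HF, with 8 of 11 lower in both HF sections. In L4–6 the sum was 15239 and 16239 CPM in MF and 14351 and 14197 CPM in HF, with 9 of 11. Its part in the Nlgn2 differences was not tested. Among the other genes, Lrrtm1 met the rule in CTX and L4–6 and Lrrtm3 in CTX and L2–3, each higher in HF by 0.22 to 0.29, and Lrrtm3 also in CA1, where it was lower by -1.24 (38.1 and 26.1 CPM in MF, 14.9 and 13.9 CPM in HF; adjusted p = 0.588). Slitrk5, Adgrl3 and Flrt2 were higher in HF in CA1 by 0.54, 0.33 and 0.46 and Ntrk3 in HP by 0.19. Il1rapl1 in HY (-0.35), Gpc4 in L2–3 (-0.69), Adgrl2 in DG (-0.79) and Cbln4 in HP (-0.44) were lower. None of them passed after adjustment, with adjusted p of 0.525 to 0.897. Few UMIs were counted over all sections for Lrrtm3 in CA1 (76), Adgrl2 in DG (86) and Gpc4 in L2–3 (100). In CA1 the summed level of 11 oligodendrocyte markers was 11556 and 7587 CPM in MF and 6697 and 6455 CPM in HF. Of these, 7 of 11 were lower in both HF sections, and their part in the CA1 differences was not tested. The Adgrl2 difference in DG became -0.30 without HF replicate 2 and -1.28 without HF replicate 1. The make-up of CTX differed between sections. Within it a cluster of shallow spots held 128, 166, 315 and 141 spots in MF replicates 1 and 2 and HF replicates 1 and 2. Its part in the CTX differences, also those of Lrrtm2 and Ptprd, was not tested.

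In TH, Slitrk6 had the smallest p. Its HF sections (118 and 115 CPM) lay above its MF sections (78.9 and 86.4 CPM) by 0.49 ± 0.10 on the log2 scale (SE, adjusted p = 0.580, edgeR). The summed level of the 11 oligodendrocyte markers in TH was 28619 and 30225 CPM in MF and 23706 and 24095 CPM in HF, with 11 of 11 lower in both HF sections, and its part in the difference was not tested. The make-up of TH differed between sections, since 1 of its 3 clusters held 126, 182, 389 and 106 spots and another 251, 154, 23 and 229 in MF replicates 1 and 2 and HF replicates 1 and 2. Within each of the 3 clusters both HF sections were above both MF sections, for example at 107 and 88.3 CPM against 63.4 and 61.6 CPM in the cluster led by Rab37 and Prkcd. Without a filter on low counts, Slitrk6, Cbln1 and Cbln2 were called in TH, at 0.49, 0.52 and 0.50, where 0.747% of all features were called in place of 0%.

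The TH values of Cbln1 and Cbln2 moved most without HF replicate 2, the section with the other hypothalamic markers. Cbln1 had 84.2 and 81.9 CPM in MF and 93.3 and 147 CPM in HF, with 0.52 ± 0.19 on the log2 scale (SE, adjusted p = 0.644, edgeR), which became 0.15 without HF replicate 2 and 0.81 without HF replicate 1. In the TH cluster led by Rab37 and Prkcd, Cbln1 had 47.9 and 40.2 CPM in MF and 45.1 and 39.9 CPM in HF, which overlap. In the cluster with 106 spots in HF replicate 2 both HF sections were higher (100.6 and 99.02 CPM in MF, 108 and 192 CPM in HF), and in the remaining one, with 23 spots in HF replicate 1, the diets overlapped (129 and 153 CPM in MF, 54.2 and 222 CPM in HF). Cbln2 had 31.6 and 28.8 CPM in MF and 37.0 and 49.8 CPM in HF, with 0.50 on the log2 scale that became 0.27 without HF replicate 2 and 0.71 without HF replicate 1. In the cluster led by Rab37 and Prkcd both HF sections of Cbln2 were higher (21.0 and 16.3 CPM in MF, 21.4 and 51.9 CPM in HF), and in the other clusters of TH the diets overlapped. Nrxn3, their presynaptic partner, was lower in HF in TH by -0.23 (adjusted p = 0.644). In DG, Cbln2 was lower in HF, with 26.4 and 14.9 CPM against 7.06 and 10.3 CPM, by -1.28 ± 0.37 on the log2 scale (SE), and its adjusted p of 0.186 (edgeR) was the smallest of the 33 genes in any area. This value rests on 94 UMIs over all sections. The difference became -0.74 without MF replicate 1 and -1.63 without HF replicate 2. In DG the summed level of 11 oligodendrocyte markers was 10379 and 8428 CPM in MF and 6688 and 6113 CPM in HF. All 11 of 11 were lower in both HF sections, and their part in the Cbln2 difference was not tested. Cbln2 was called in DG without the filter on low counts, where 0.398% of all features were called in place of 0.225%.

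Whether the diet difference itself varied over CTX, HP, TH, HY and STR was tested with area by diet terms. No gene of the 33 passed, where 0.1% of all features did, and 3 had an unadjusted p under 0.05 against 7.53% of all. Cbln1 came closest, with -0.42 in HP and 0.52 in TH (adjusted p = 0.122, edgeR), followed by Slitrk6 with -0.30 in HP and 0.49 in TH (adjusted p = 0.368) and Sparcl1 with -0.11 in STR and 0.18 in HY (adjusted p = 0.631). The fitted log2 range of Slitrk6 over the areas was 1.39, wider than from HP to TH. It includes STR, where the counts of Slitrk6 were too low for its own test of the diets. Of 78 other synapse organizer genes, 77 were tested in the whole section and none was called. Among those with the smallest p were Tenm2, a teneurin that binds latrophilins (log2 difference 0.27, 57.6 and 63.7 CPM in MF, 75.0 and 72.6 CPM in HF), Cbln3 (-1.63, under 0.4 CPM throughout), Cacna2d2 (0.23) and C1ql2 (0.27), all with an adjusted p of 0.696.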

How the data were processed

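Each section was 1 replicate, called a biological replicate by the study; whether litters differed is not given in the sources used here, and p-values measure the spread between these sections. The authors aligned probe reads to mm10 with Space Ranger 2.0.0 and deposited raw UMI counts per spot. Per the file headers, a further table lists Moran's I (a score) with its p-value and a signal, the mean count scaled to median depth; the score was used. Positions came from GENCODE vM21 and promoters from RefSeq (24 of 33 genes listed).

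Spots under 500 UMIs or 250 genes were removed. Areas came from Leiden clustering (leidenalg 0.10.2, igraph 0.11.9, scanpy 1.11.5, scikit-learn 1.9.0; 2000 variable genes, 30 components, 20 neighbours, resolution 1) without the 33 genes and 78 related ones. A cluster was named from its markers. Unnamed cortical and hippocampal subclusters counted for CTX or HP but, other than the Rorb-Kcnh5 spots, for no smaller area. L1 and olfactory areas had no cluster. UMIs were summed per section and area (at least 20 spots) and tested with edgeR 4.0.16 (R 4.3.3), TMM and filterByExpr, adjusted by Benjamini-Hochberg over all features. For HF against MF, genes were named if called, or at an unadjusted p under 0.05 with diets that did not overlap; 33 pairs of 17 genes and an area met the second rule. The members and lists were chosen with earlier results of these data known, and the genes in figures and the values within clusters of TH and HY after seeing the levels. In a test on simulated data, of 200 features with a 2-fold change 95% were recovered in the whole section, 89% in HP, 75% in DG and 47.5% for the area by diet terms; at 1.5-fold it was 61.5%, 57.5% and 30% in the first 3. All features of a simulation had the same dispersion. For the area by diet terms the change was set in TH alone, among features of high counts. These shares are thus not those of the 33 genes. Alternatives were DESeq2 1.42.0, other scalings, no filter on low counts, replicate blocks, spots thinned to 5000 UMIs, Leiden resolution 0.5 and each section left out. The values of 1 related gene are not reported here.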

Additional observations from a re-analysis of the deposited data

How the results depend on the processing

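The count of genes called between HF and MF stayed at 0 in every area run under DESeq2, library size alone, DESeq2 size factors, spots thinned to 5000 UMIs and Leiden resolution 0.5. Without a filter on low counts it was 3 in TH, 1 in DG and 3 for the area by diet terms, where 0.747%, 0.398% and 1.52% of all features were called in place of 0%, 0.225% and 0.1%; the cause was not tested. Over the fits without 1 section, it ranged from 0 to 6 in the whole section, 0 to 4 in CTX, 0 to 2 in HP, 0 to 6 in TH, 0 to 3 in HY, 0 to 3 in L4–6 and 0 to 3 for the area by diet terms, and was 0 in the other areas; every count above 0 came without HF replicate 1 or HF replicate 2, where 0.218% to 7.68% and 0.105% to 9.9% of all features were called over the whole section and the areas. For areas, Il1rapl1 in STR missed the threshold without HF replicate 1 (0.30) or HF replicate 2 (0.27), and Thbs2 in CTX with thinned spots (0.31) or without MF replicate 1 (0.29). Of the 33 diet differences named by the rule and the 33 differences between areas, none reversed its direction, whereas the median HF minus MF difference of the genes changed sign, for example in HP from 0.04 to -0.04 without HF replicate 1, in STR from -0.02 to 0.11 without HF replicate 2 and in DG from -0.02 to 0.04 with thinned spots.

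Section numbers did not pair the samples: the correlation of same-numbered deviations was -0.16 in the whole section and -0.16 to 0.07 over all areas. With the replicate block 0 genes were called in every area, and with the crossed replicate block, an alternative added after the data were seen, 1 in TH (Slitrk6), where 0.343% of all features were called, and 0 elsewhere.

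Less can be found in the small areas. In simulated data 30% of 1.5-fold changes were recovered in DG and 57.5% in HP, and whether low counts or spread set this was not tested. In CA1 and CA2–3, with 21 to 41 spots per section, only 27 of the 33 genes passed the filter on low counts. In the alternatives with thinned spots and Leiden resolution 0.5, areas of at least 10 spots per section were kept.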
